A study of Mus musculus with 4 samples.

Results

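IL-6 family cytokines and IL-1 reach the liver cell through a small set of receptors, and the genes described here are 10 of that set: the cytokine genes *Il6* and *Il1a*, the receptor genes *Il6ra*, *Il6st*, *Osmr*, *Lifr* and *Il1r1*, the IL-1 antagonist gene *Il1rn*, the transcription factor gene *Stat3* and the feedback inhibitor gene *Socs3*. They were found by gene symbol in the annotation of the array. The rule uses no measured value, but the set was drawn up with earlier results of these data known. The array carries 26 probe sets for them, out of 45037 probe sets other than controls, and they are 10 of the 18193 genes that probe sets with 1 gene symbol represent. No probe set of theirs is shared with another gene.

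Liver RNA was measured on 4 Affymetrix mouse arrays, 1 for each genotype, and each array received equal amounts of RNA from the livers of 3 non-fasted male mice aged 5 weeks. WT mice carried no Cre. ΔS6 mice (DS6 in the labels) carried *Rps6* lox/lox and Cre driven by the albumin promoter, which removes the gene for ribosomal protein S6 in hepatoblasts and their descendants. Alb-c-Myc mice (Myc in the labels) carried a c-Myc transgene driven by the albumin promoter, with *Rps6* intact, and ΔS6:c-Myc mice (DS6 Myc in the labels) carried *Rps6* lox/lox, the same Cre and the transgene. The study describes the *Rps6* deletion as incomplete and patchy, and different from mouse to mouse, so ΔS6 pools can hold hepatocytes that keep the gene. The values are log2 expression values, so that a difference of 1 between arrays is 2-fold. With 1 array per genotype there was no replicate and no test, and a gene or probe set was called higher or lower when a pair of arrays differed at least 2-fold.

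IL-6 binds its receptor IL-6Rα, made from *Il6ra*, and the complex engages gp130, the signal-transducing chain made from *Il6st*. Janus kinases on gp130 then phosphorylate STAT3, which enters the nucleus, drives acute phase genes in hepatocytes and induces *Socs3*, whose product shuts the receptor down. Oncostatin M and LIF use the same gp130 together with the chains encoded by *Osmr* and *Lifr*. IL-1α and IL-1β bind IL-1R1, made from *Il1r1*, which pairs with the accessory chain IL-1RAcP and signals through MyD88 and IRAK kinases to NF-κB, and the product of *Il1rn*, IL-1Ra, occupies the receptor without signalling.

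The gene starts of *Socs3*, *Osmr* and *Lifr* are shown because these were the members that passed 2-fold between ΔS6 and WT liver. RefSeq (GRCm38.p6) gave a start for all 10 genes, in 14 windows, and the 250 bases upstream of each were searched on both strands for the letters of 4 motifs: TTCNNNGAA (STAT), TGANTCA (AP-1), TTGCNNAA (C/EBP) and GGGA and TTCC parted by 2 bases (NF-κB). Each line gives the strand of the gene 5′ to 3′, and capitals mark a motif match. *Lifr* has 2 windows, named by their order along the gene.
Socs3, chr11:117969367-117969616, minus strand: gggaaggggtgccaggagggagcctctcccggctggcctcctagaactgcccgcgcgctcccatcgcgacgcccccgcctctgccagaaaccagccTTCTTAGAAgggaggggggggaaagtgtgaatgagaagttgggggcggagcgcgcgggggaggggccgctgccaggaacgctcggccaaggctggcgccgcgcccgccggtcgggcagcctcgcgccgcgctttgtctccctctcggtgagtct
Osmr, chr15:6874314-6874563, minus strand: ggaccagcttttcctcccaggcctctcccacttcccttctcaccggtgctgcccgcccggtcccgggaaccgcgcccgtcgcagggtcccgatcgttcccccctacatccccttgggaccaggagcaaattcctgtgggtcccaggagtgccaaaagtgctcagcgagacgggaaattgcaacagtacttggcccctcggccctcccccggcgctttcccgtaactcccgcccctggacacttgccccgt
Lifr, upstream window, chr15:7129322-7129571, plus strand: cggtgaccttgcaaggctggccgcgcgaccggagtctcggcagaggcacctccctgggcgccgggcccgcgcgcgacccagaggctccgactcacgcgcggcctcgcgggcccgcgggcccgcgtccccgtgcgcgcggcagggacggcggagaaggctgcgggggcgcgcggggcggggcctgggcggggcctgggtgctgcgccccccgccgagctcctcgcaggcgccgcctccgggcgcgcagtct
Lifr, downstream window, chr15:7140292-7140541, plus strand: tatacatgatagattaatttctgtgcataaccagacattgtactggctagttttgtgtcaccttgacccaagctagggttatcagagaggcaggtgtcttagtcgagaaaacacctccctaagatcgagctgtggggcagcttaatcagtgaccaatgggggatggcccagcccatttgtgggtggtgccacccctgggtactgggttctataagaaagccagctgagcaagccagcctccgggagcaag
The *Socs3* window held 1 STAT match, TTCTTAGAA, from 154 to 146 bases upstream of the start, a motif found in 7.02% of the 32851 windows of this length in the table. The windows of *Osmr* and *Lifr* held none of the 4 motifs, and no other member window held the STAT letters. The *Il6* window, upstream of chr5:30013114, held 3 matches, TGAGTCA for AP-1, TTGTGCAA (C/EBP on the other strand) and GGGATTTTCC for NF-κB, with shares over all windows of 6.75%, 9.56% and 1.21%. The windows of *Il1rn* and *Il1a* each held 1 AP-1 match, and that of *Il1r1* held 1 C/EBP match. All of these are matches of letters, not measured binding. The *Socs3*, *Osmr* and *Lifr* windows lie within the outer bounds that RefSeq gives for these genes, so other starts lie further upstream.

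Before the members are compared, 3 facts of the arrays bear on them. For *Rps6*, the 9 probe sets that its pseudogene shares had a median log2 ratio to WT of -0.29 (-0.42 to -0.10) in ΔS6, and ΔS6:c-Myc lay -1.76 (-2.37 to -1.25) from Alb-c-Myc, while the 2 probe sets of *Rps6* alone went in opposite directions in ΔS6 over WT (-0.79 and 1.47). *Myc* read 8.33 in WT and 8.89 in ΔS6, and with the transgene 11.68 (Alb-c-Myc) and 11.37 (ΔS6:c-Myc). Lists of 4 values below keep this order of arrays. The WT array stood apart from its label: it read 11.84 for *Xist*, the X-inactivation RNA of female cells, against 5.88 to 6.33 on the others. The Y-linked genes *Eif2s3y*, *Kdm5d* and *Uty* also read 8.67, 7.70 and 7.73 on it, against 9.09, 8.14 and 7.79 in ΔS6. Which sexes the WT pool held was not tested. All 8 pancreatic enzyme genes examined were at least 2-fold below WT in ΔS6. The members in ΔS6 are therefore also given against the Alb-c-Myc array. The SD of the log2 ratio between probe sets of 1 gene (probe sets with a mean of at least 8) was 0.27 for ΔS6 over WT, 0.14 for Alb-c-Myc over WT, 0.29 for ΔS6:c-Myc over WT, 0.20 for ΔS6:c-Myc over ΔS6 and 0.24 for ΔS6:c-Myc relative to Alb-c-Myc. It measures how far probe sets differ, not how far mice differ.

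The first comparison asks how receptor signalling genes stood in ΔS6 liver at 5 weeks. In ΔS6 liver *Osmr* and *Socs3* stood above WT and *Lifr* below it, and the other 7 members lay within 2-fold. Among all genes, 7.24% were at least 2-fold higher in ΔS6 and 2.54% at least 2-fold lower, against 2 and 1 of the 10 members. By probe set, 9 of 26 passed 2-fold, 6 of them higher and 3 lower, against 7.25% of all probe sets. The median log2 ratio of the member genes was 0.40, and that of all genes -0.05. The plot of every probe set shows these values.

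**Figure D1:**
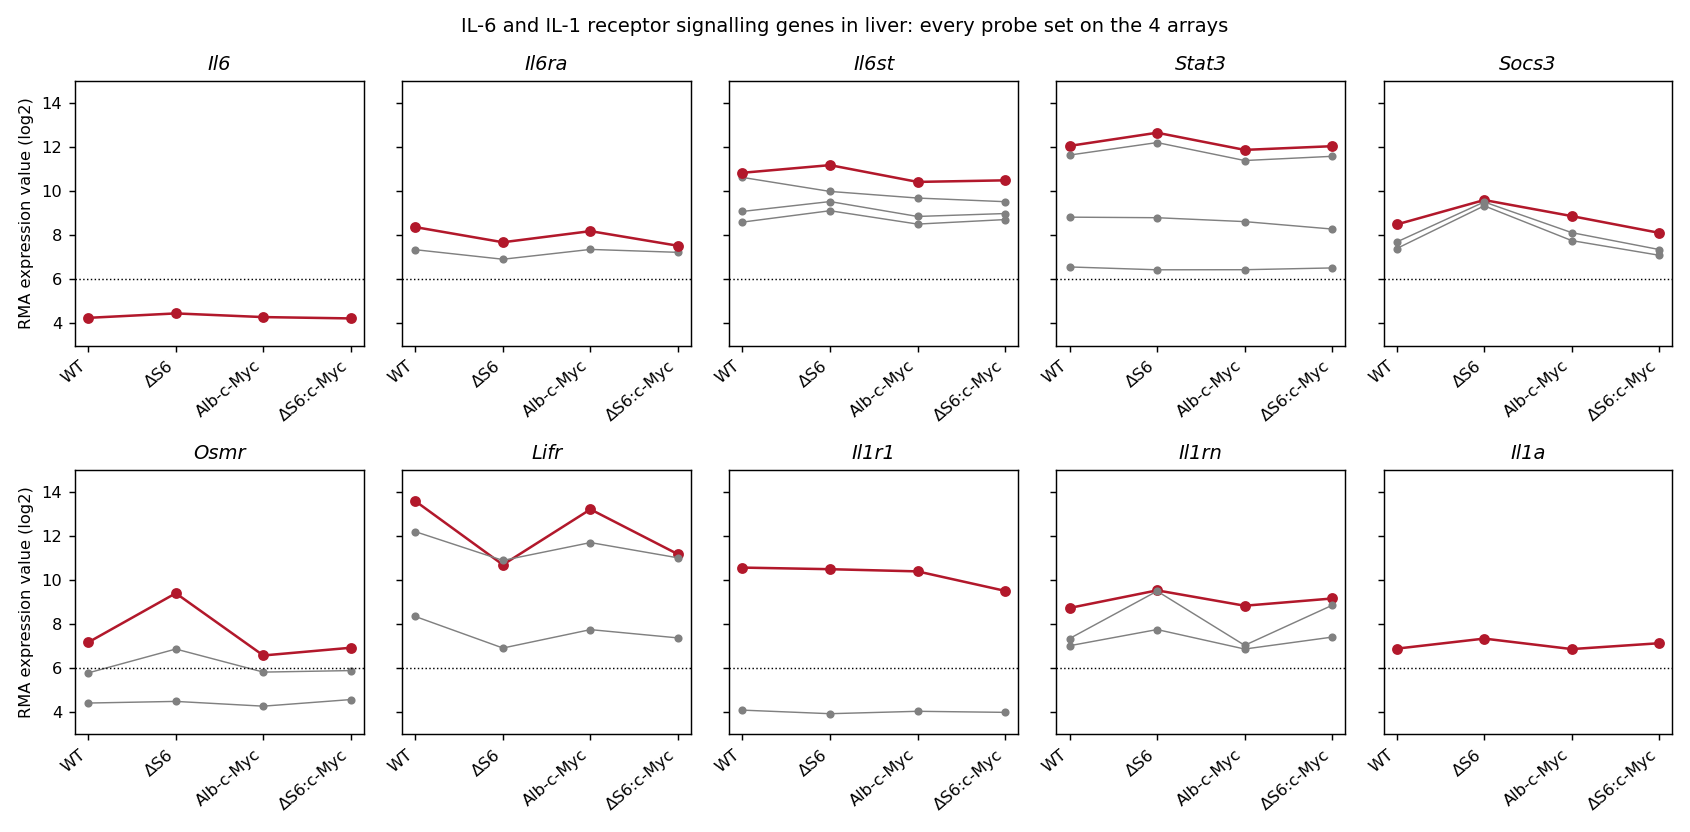
Log2 expression value of every probe set of the 10 member genes on the 4 arrays, 1 per genotype. Red is the brightest probe set by its mean, which stands for the gene, grey are the others, the lines join values of 1 probe set, and the dotted line at 6 marks the level below which a probe set was taken as dim. *Osmr* and *Socs3* peak on the ΔS6 array, and *Lifr* dips on both arrays with *Rps6* deleted.

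*Lifr*, the LIF receptor chain, showed the lowest ratio of the members. Its brightest probe set read 13.58 in WT, 10.69 in ΔS6, 13.20 in Alb-c-Myc liver and 11.17 in ΔS6:c-Myc. The ΔS6 array was thus 7.40-fold below WT (log2 ratio -2.89), at percentile 0.187 of all genes, and below Alb-c-Myc by a log2 ratio of -2.51. All 3 *Lifr* probe sets were below WT past 2-fold in ΔS6, at -2.89, -1.30 and -1.43. Against Alb-c-Myc the other 2 probe sets were at -0.81 and -0.84, within 2-fold. The probe sets therefore gave one order of the arrays, with both *Rps6*-deleted livers lowest, but differed in size by more than their usual spread. In whole-liver RNA, fewer cells of a type and less RNA per cell cannot be told apart. None of the 9 hepatocyte markers passed 2-fold in ΔS6 over WT (all genes 7.24% higher and 2.54% lower), with a median ratio of -0.12. However, *Alb*, at 15.42 in WT and 15.41 in ΔS6, was near the top of the array's range.

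*Osmr*, which encodes the chain that lets gp130 respond to oncostatin M, showed the highest ratio. Its brightest probe set read 7.17 in WT, 9.40 in ΔS6, 6.57 in Alb-c-Myc liver and 6.92 in ΔS6:c-Myc, so that 1 array stood above the other 3. ΔS6 was 4.69-fold above WT (log2 ratio 2.23, percentile 98.5) and above Alb-c-Myc by 2.82. The next probe set read 5.78, 6.87, 5.82 and 5.89 on the same arrays, 1.08 above WT and 1.05 above Alb-c-Myc. The last one, at 4.27 to 4.57, was dim on every array.

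The shared chain and the IL-6 receptor moved less. *Il6st* read 10.84 in WT, 11.18 in ΔS6, 10.42 in Alb-c-Myc liver and 10.49 in ΔS6:c-Myc on its brightest probe set. That is a log2 ratio of 0.35 for ΔS6 over WT, but 1 of its 4 probe sets ran the other way, from 10.63 in WT to 9.99 in ΔS6, so the data set no direction for gp130 mRNA in this pair. *Il6ra* read 8.37 in WT, 7.69 in ΔS6, 8.19 in Alb-c-Myc liver and 7.53 in ΔS6:c-Myc, and both *Rps6*-deleted livers were below both livers with *Rps6* intact. Its ratio was -0.69 for ΔS6 over WT, at percentile 5.37, and -0.43 on the second probe set.

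The ligand itself was not readable here. *Il6* had 1 probe set, at 4.26, 4.46, 4.29 and 4.23 on the 4 arrays, which is dim on all of them, so neither its presence nor a difference can be stated.

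Downstream of the receptors, the brightest probe sets of *Stat3* and *Socs3* were highest in ΔS6. *Stat3* read 12.06 in WT, 12.65 in ΔS6, 11.88 in Alb-c-Myc liver and 12.04 in ΔS6:c-Myc on its brightest probe set. ΔS6 was above WT by 0.60 and above Alb-c-Myc by 0.78, within 2-fold. The next brightest *Stat3* probe set ran in parallel (11.64, 12.21, 11.39 and 11.58), whereas the remaining 2 read 8.82 and 6.57 in WT against 8.80 and 6.44 in ΔS6.

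*Socs3*, the inhibitor that STAT3 induces and whose upstream window carries the STAT letters shown above, read 8.49 in WT, 9.60 in ΔS6, 8.87 in Alb-c-Myc liver and 8.11 in ΔS6:c-Myc on its brightest probe set. The other 2 probe sets read 7.70, 9.51, 8.12 and 7.35, and 7.40, 9.34, 7.76 and 7.09, in the same order of arrays. Those 2 belong to a class, marked _x_at, whose probes may match other transcripts. All 3 were past 2-fold in ΔS6 over WT, by 1.11 to 1.94, with ΔS6 on top and ΔS6:c-Myc at the bottom in each. The gene's value was 2.16-fold above WT, at percentile 93.7. Against Alb-c-Myc the 3 probe sets gave 0.73, 1.39 and 1.58, so the brightest no longer passed 2-fold. It also fell short against WT, at 0.97, when quantile normalization was repeated over the 4 arrays.

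On the IL-1 side, no member passed 2-fold in ΔS6 by its brightest probe set. *Il1r1* read 10.56 in WT, 10.49 in ΔS6, 10.39 in Alb-c-Myc liver and 9.50 in ΔS6:c-Myc, so that ΔS6 and WT differed by -0.07. A second *Il1r1* probe set was dim on all arrays. *Il1a*, 1 of the IL-1 ligands, read 6.88, 7.34, 6.86 and 7.13 with 1 probe set, a ratio of 0.46 for ΔS6 over WT.

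*Il1rn* read 8.73 in WT, 9.53 in ΔS6, 8.83 in Alb-c-Myc liver and 9.16 in ΔS6:c-Myc on its brightest probe set, 0.80 above WT in ΔS6. A second probe set read 7.34, 9.49, 7.03 and 8.85, which is 2.15 above WT in ΔS6 and 2.46 above Alb-c-Myc. The last one read 7.02, 7.75, 6.87 and 7.41. All 3 had the 2 *Rps6*-deleted livers above the other 2, and the mean of the 3 was 1.23 above WT in ΔS6, so whether the gene passed 2-fold depended on the probe sets taken.

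Set against Alb-c-Myc in place of WT, ΔS6 liver had 2 member genes past 2-fold, *Osmr* higher and *Lifr* lower, against 7.00% of all genes higher and 2.23% lower, and 6 of 26 member probe sets, against 6.84% of all. The ratios of the members not yet given were 0.76 for *Il6st*, -0.50 for *Il6ra*, 0.10 for *Il1r1*, 0.70 for *Il1rn* and 0.48 for *Il1a*, so no further gene passed 2-fold with the other reference.

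Alb-c-Myc liver served to show the transgene alone. No member passed 2-fold over WT, where 0.418% of all genes were higher and 0.335% lower, and 0 of 26 probe sets did, against 0.531% of all. By brightest probe sets the largest ratio of a member was -0.60, for *Osmr*, and the median was -0.18 against 0.00 for all genes. The next *Osmr* probe set was at 0.04, and the 4 *Il6st* probe sets were at -0.94 to -0.09.

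In ΔS6:c-Myc liver, which had *Rps6* deleted and the transgene, 2 members were at least 2-fold below WT, *Lifr* and *Il1r1*, and none above. Among all genes 1.80% were lower and 3.00% higher in this pair, and by probe set 5 of 26 members passed (1 higher, 4 lower) against 3.68% of all. *Lifr* was 5.32-fold below WT (-2.41, percentile 0.148), with its other probe sets at -1.19 and -0.97. *Il1r1* was 2.08-fold below (-1.06, percentile 1.55), and *Il6ra*, at -0.85 and on its second probe set -0.12, stayed within 2-fold. The higher probe set was the second one of *Il1rn*, at 1.51, and the fourth lower one belonged to *Il6st*, at -1.10, whereas the brightest *Il6st* probe set was at -0.34.

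Against Alb-c-Myc, which shares the transgene and shares no array with ΔS6 over WT, 1 member was lower past 2-fold and none higher, against 1.36% and 1.99% of all genes. By probe set, 1 was higher and 1 lower, against 2.56% of all. The lower one was *Lifr*, 4.11-fold (-2.04, percentile 0.137), though its other probe sets were at -0.69 and -0.38. *Il1r1* (-0.88), *Socs3* (-0.76) and *Il6ra* (-0.66) lay within 2-fold, at percentiles 1.79, 2.51 and 3.39, and the second *Il6ra* probe set was at -0.13. *Osmr* was at 0.35 and *Stat3* at 0.17. The higher probe set was the second one of *Il1rn*, at 1.82.

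**Figure D2:**
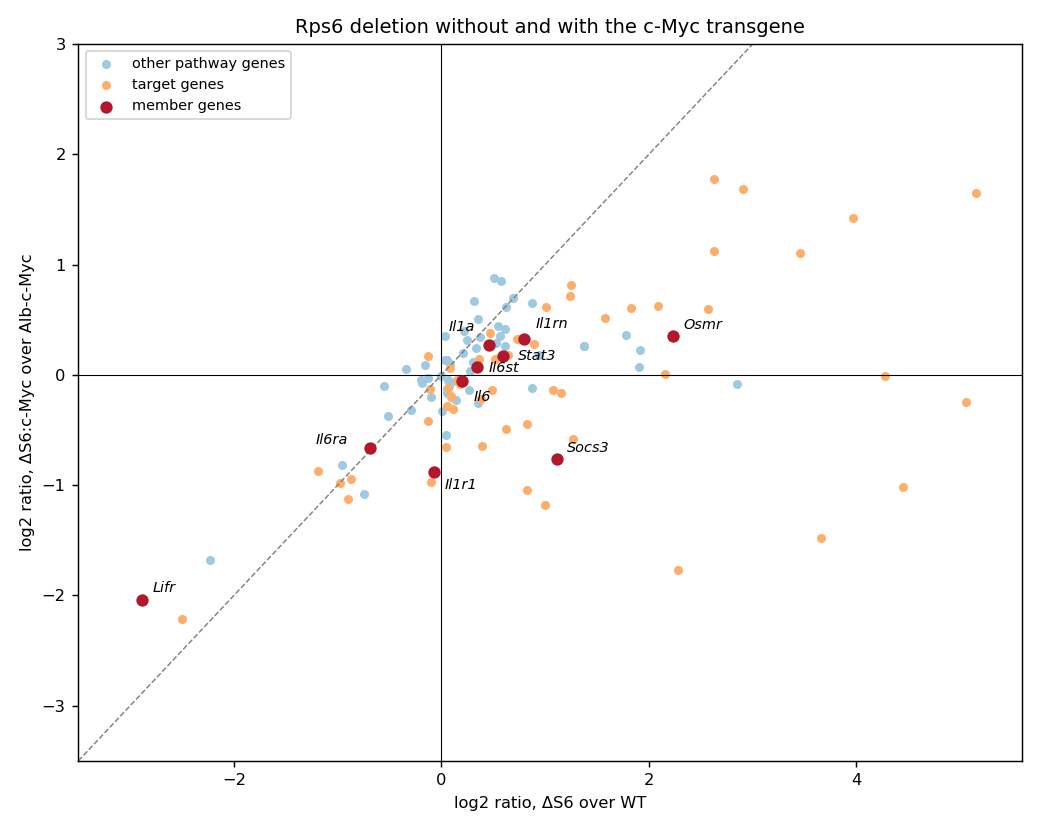
Log2 ratio of ΔS6 over WT (horizontal) against that of ΔS6:c-Myc relative to Alb-c-Myc (vertical), which share no array, for the 10 member genes (red, named), other genes of the pathways (blue) and listed target genes (orange). On the dashed line both ratios are equal. *Lifr* lies near it at the lower left (-2.89 and -2.04), *Osmr* lies far to its right (2.23 and 0.35), and *Socs3* has opposite signs (1.11 and -0.76).

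*Socs3* was thus above its reference in ΔS6 and below it in ΔS6:c-Myc, and that difference has no test. ΔS6:c-Myc over ΔS6 gives the same arrays side by side. There *Osmr* was 5.55-fold lower (-2.47, percentile 0.478) and *Socs3* 2.81-fold lower (-1.49, percentile 1.92), none was higher, and 4.29% of all genes were lower and 0.770% higher. By probe set, 4 of 26 were lower, 3 of *Socs3* (-2.24 to -1.49) and 1 of *Osmr*, against 3.65% of all past 2-fold in either direction. *Il1r1* (-0.98), *Il6st* (-0.69) and *Stat3* (-0.61) lay below ΔS6 within 2-fold, and *Lifr* was 0.48 above it. The member median was -0.49, against 0.05 for all genes.

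The genes around the receptors were taken from lists of known partners and targets, and the plot by list shows them. Beside each list stands the share of all genes past 2-fold in the same pair. By their brightest probe sets, 0 of 8 other ligands and receptors of the IL-6 family were higher and 0 lower in ΔS6 over WT (all genes 7.24% and 2.54%), with a median of 0.06. *Clcf1*, a cytokine of this family that acts through gp130 and the LIF receptor, divided by probe set. The brightest read 7.59, 7.96, 7.62 and 7.96, a ratio of 0.37 for ΔS6 over WT. The other 2 read 6.44, 8.51, 6.50 and 7.17 (2.08) and 4.40, 7.75, 4.33 and 4.71 (3.36), and both were highest on the ΔS6 array. With the mean of all probe sets, 1 gene of this list was thus higher in ΔS6 over WT and 1 lower in ΔS6:c-Myc over ΔS6. *Lif*, the ligand of the LIF receptor, read 6.90, 7.52, 6.95 and 7.56 on the 4 arrays by its brightest probe set. That puts the 2 *Rps6*-deleted livers 0.62 and 0.61 above their references, but its other probe set put them only 0.07 and 0.19 above. *Osm*, the ligand that acts through *Osmr*, read 7.80, 7.70, 7.93 and 7.73, with no array apart.

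Of 19 Janus kinases, other STATs and inhibitors of this signalling, 0 passed 2-fold in ΔS6 over WT (all genes 7.24% higher and 2.54% lower), with a median of 0.06. The largest ratios were those of *Cish*, a SOCS family inhibitor (-0.96), and *Jak3*, a kinase of lymphoid cells (0.94). *Socs2*, another SOCS gene and a growth hormone target, read 11.04, 10.30, 11.07 and 9.99, and by this probe set was lower in ΔS6:c-Myc than WT (-1.05) and than Alb-c-Myc (-1.08). Of its 6 probe sets, 2 passed 2-fold lower than WT and 3 lower than Alb-c-Myc, and 2 were past 2-fold higher in Alb-c-Myc over WT (1.48 and 1.06). With the mean of all probe sets, 0 genes of this list were past 2-fold lower in either pair.

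**Figure D3:**
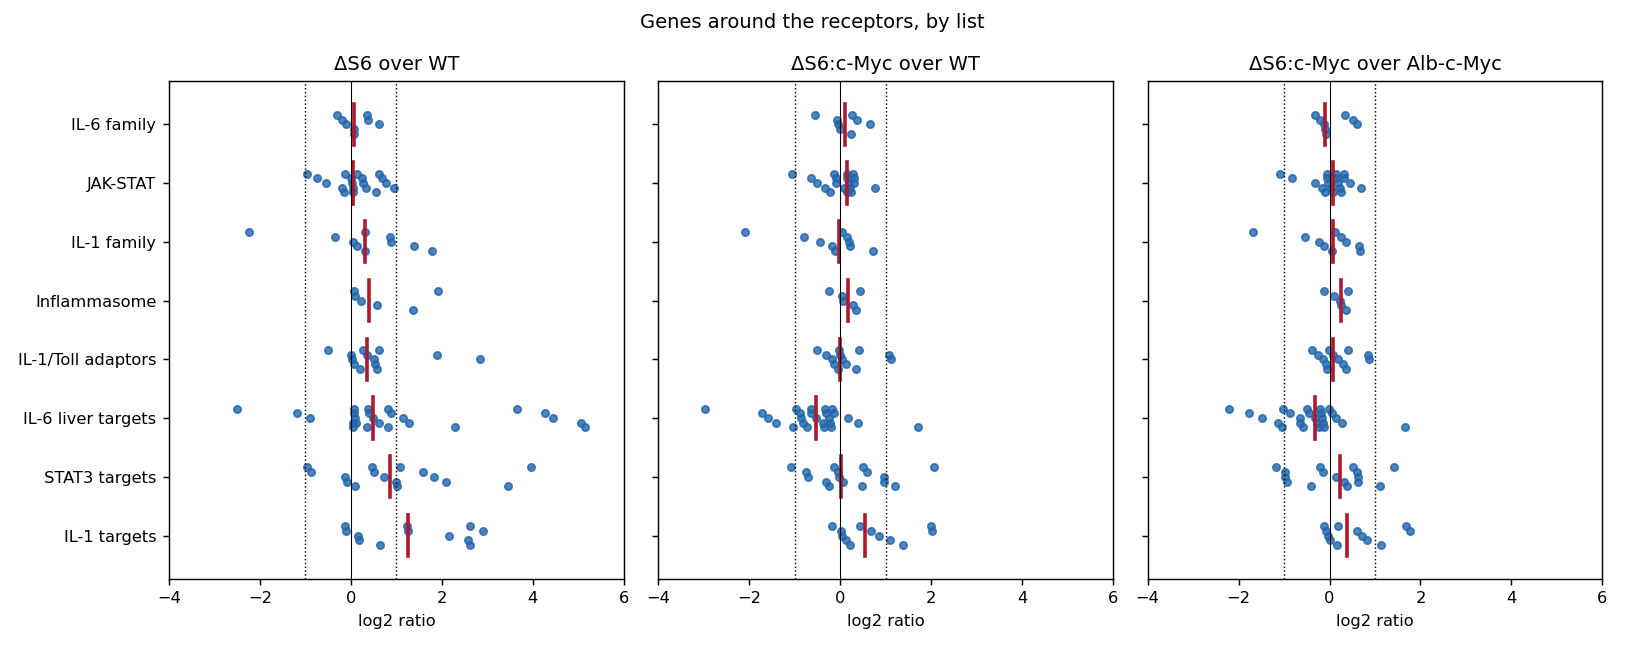
Log2 ratio of each gene (blue points) of 8 lists of partners and targets in ΔS6 over WT, ΔS6:c-Myc over WT and ΔS6:c-Myc relative to Alb-c-Myc. Red bars are list medians and dotted lines mark 2-fold. IL-6 liver targets have medians of 0.49, -0.54 and -0.31 in the 3 panels, and IL-1 targets 1.24, 0.55 and 0.39.

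Genes listed as IL-6 targets in hepatocytes spread widely. Of 25 measured, 8 were at least 2-fold above WT in ΔS6 and 2 below (all genes 7.24% and 2.54%), and the list median was 0.49. *Lcn2*, an iron-siderophore trapping protein, read 8.87, 14.02, 8.94 and 10.59, 35.6-fold higher in ΔS6 (5.15). *A2m*, a protease inhibitor of plasma, read 6.65, 11.71, 6.58 and 6.34, 33.3-fold higher (5.06). *Orm2*, an acid glycoprotein of the acute phase, read 9.77, 14.22, 9.07 and 8.05, a ratio of 4.45, and *Saa3*, a serum amyloid A gene, was at 4.27.

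Other genes of that list were singled out after their values were seen. *Saa2* (3.66), *Saa1* (2.28), *Apcs* (1.27) and *Serpina3n* (1.15) made up the 8, and *Hamp2* (-2.50) and *Saa4* (-1.19) were the 2 lower ones. The 2 probe sets of *Hamp2* gave -2.50 and -0.32. The fibrinogen chains *Fga*, *Fgb* and *Fgg*, bright at 14.85 to 14.93 in WT, were at 0.09, 0.11 and 0.05. The list takes in relatives of IL-6-induced genes, such as *Saa4* and *Hamp2*, which need not respond to IL-6 themselves. *Saa* and *Orm* genes are close relatives, and probe sets may pick up RNA of more than 1 of them.

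With the transgene the picture of these targets differed. In ΔS6:c-Myc relative to Alb-c-Myc, 1 of 25 was higher, *Lcn2* (1.65), and 6 were lower (all genes 1.99% and 1.36%), with a median of -0.31. *Orm2* was at -1.02, and, named after their values were seen, *Saa1* was at -1.77, *Saa2* at -1.48, *Orm3* at -1.04, *Crp* at -1.13 and *Hamp2* at -2.21 (0.11 on its other probe set). Over WT, 1 was higher and 5 lower (all genes 3.00% and 1.80%), with a median of -0.54. Over ΔS6, 13 were lower and 0 higher (all genes 4.29% and 0.770%), with a median of -1.21. *A2m* and *Orm2*, at -5.37 and -6.17 in that last pair, were thus high on the ΔS6 array and on no other.

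STAT3 targets of transcription, survival and tissue response showed 7 of 16 higher and 0 lower in ΔS6 over WT (all genes 7.24% and 2.54%), with a median of 0.86. *Ier3*, an early response gene, read 6.49, 10.45, 6.27 and 7.70 (3.96), *Fos*, an AP-1 subunit, 6.90, 10.35, 7.84 and 8.95 (3.45), and *Timp1*, a metalloproteinase inhibitor, 6.20, 8.29, 6.16 and 6.79 (2.09). *Hgf*, the hepatocyte growth factor, was at 1.83. In ΔS6:c-Myc relative to Alb-c-Myc, *Fos* (1.11) and *Ier3* (1.42) were higher and *Gadd45g*, named after its value was seen, was lower (-1.18), against 1.99% and 1.36% of all genes, with a median of 0.23. In Alb-c-Myc over WT the same *Gadd45g* was the 1 gene of all 8 lists past 2-fold by its brightest probe set, at 1.14, where 0.418% of all genes were higher.

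The IL-1 family held a fall beside rises. Of 10 further ligands, receptors and decoys, 2 were higher and 1 lower in ΔS6 over WT (all genes 7.24% and 2.54%), with a median of 0.31. The lower gene was *Il1rap*, which encodes the accessory chain without which IL-1R1 does not signal, at 12.90 in WT, 10.67 in ΔS6, 12.49 in Alb-c-Myc liver and 10.82 in ΔS6:c-Myc. By this probe set it was low on both arrays with *Rps6* deleted, at -2.23 for ΔS6 over WT and -1.68 for ΔS6:c-Myc relative to Alb-c-Myc. Its 5 probe sets gave -2.23 to -0.30 in the first pair and -1.68 to -0.22 in the second, and 1 passed 2-fold in each. With the mean of all probe sets, 0 genes of this list were lower past 2-fold in ΔS6:c-Myc, whether set against WT or Alb-c-Myc. *Il18bp*, the decoy that binds IL-18, read 8.89, 10.67, 8.75 and 9.11 (1.78), and *Il33*, a cytokine released from damaged cells, 7.44, 8.81, 7.32 and 7.58 (1.38), and both were highest on the ΔS6 array. *Il1b*, the other IL-1 ligand, read 7.09, 7.96, 6.62 and 7.28 (0.87).

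Of 6 inflammasome genes, *Pycard*, the adaptor that brings caspase-1 to its sensors, was at 1.91 and *Casp4* at 1.37 in ΔS6 over WT, and 0 were lower (all genes 7.24% and 2.54%), with a median of 0.39. The other 2 *Pycard* probe sets, dim on all arrays, were at 0.19 and 0.06, and with the mean of all probe sets 1 gene of this list was higher, and 1 was lower in ΔS6:c-Myc over ΔS6. Of 13 adaptors and kinases that IL-1 and Toll-like receptors share, 2 were higher and 0 lower (the same shares of all genes), with a median of 0.35. *Irak3*, which restrains this signalling, read 5.05, 7.90, 5.08 and 4.99 (2.85) and was dim on the other 3 arrays, and *Nfkbiz*, a nuclear IκB protein, was at 1.90. By their brightest probe sets these 4 genes were below ΔS6 past 2-fold in ΔS6:c-Myc (all genes 4.29% lower). Relative to Alb-c-Myc, 0 of the 6 and 0 of the 13 passed 2-fold by their brightest probe sets (all genes 1.99% higher and 1.36% lower). Of the 6 *Ikbkg* probe sets, however, 3 were higher past 2-fold in that pair, up to 1.53. In ΔS6:c-Myc over WT, 2 of the 13 were higher (all genes 3.00%), *Ikbkg* (1.08) and, named after its value was seen, *Map3k7* (1.12). There 4 of 6 *Ikbkg* probe sets and 1 of 6 *Map3k7* probe sets passed.

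Genes that IL-1 is known to induce, among them cytokine, adhesion and NF-κB pathway genes, had the highest median, 1.24. Of these, 7 of 12 were higher and 0 lower in ΔS6 over WT (all genes 7.24% and 2.54%). *Relb*, an NF-κB subunit, read 6.18, 9.09, 6.52 and 8.21 (2.91). *Icam1* and *Vcam1*, adhesion molecules for leukocytes, were both at 2.62, and *Tnfaip3*, an inhibitor of NF-κB signalling, at 2.57. The second *Tnfaip3* probe set was at 0.59. Of 2 genes named after their values were seen, *Nfkb2* (1.25) had its second probe set at 0.04. The other, *Cxcl1*, was at 0.18 by its brightest probe set, but 2 of its 3 probe sets passed 2-fold, up to 2.05. Over Alb-c-Myc, 3 of the 12 were higher in ΔS6:c-Myc, *Icam1* (1.78), *Relb* (1.69) and *Vcam1* (1.12), against 1.99% of all genes, with a median of 0.39. In that pair 3 of 12 IL-1 targets thus stood above the reference, beside 1 of 25 IL-6 liver targets, and the difference between the lists was not tested. NF-κB and STAT3 targets also respond to other ligands. With Alb-c-Myc as the reference for ΔS6, the medians of the IL-6 liver targets, STAT3 targets and IL-1 targets were 0.71, 0.74 and 1.25, and *A2m*, *Orm2* and *Il1rap* were at 5.13, 5.15 and -1.82.

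Cell types other than hepatocytes express many of these genes, and their markers moved with the ΔS6 array. Of 14 macrophage and Kupffer cell markers, 12 were above WT in ΔS6 and 0 below (all genes 7.24% and 2.54%). The log2 of their summed level was 13.60 in WT, 15.70 in ΔS6, 13.41 in Alb-c-Myc liver and 14.15 in ΔS6:c-Myc. Of 10 neutrophil markers, 6 were higher and 0 lower (the same shares of all genes), with sums of 10.23, 14.58, 10.10 and 10.21. The neutrophil sum was thus high on 1 array, the macrophage sum above its reference on both *Rps6*-deleted arrays.

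Stellate cell and fibroblast markers gave 7 of 10 higher, with sums of 13.81, 15.16, 13.76 and 14.24, and bile duct and progenitor markers 7 of 7, with sums of 9.71, 14.46, 9.66 and 11.00. Of 8 T and B cell markers 1 was higher and of 8 endothelial markers 0. In this pair, ΔS6 over WT, 7.24% of all genes were higher. The hepatocyte sums were 17.77, 17.62, 17.71 and 17.61, but the brightest of these markers, such as *Alb*, read near the top of the scale, where a difference may not show. *Cyp2e1*, itself bright at 14.86 in WT, was at -0.69 in ΔS6 over WT, *Pck1* at -0.43 and *Hnf4a* at -0.33, all within 2-fold. *Ass1* was at -0.42, on a probe set that read only 7.83 in WT. The higher values of *Osmr*, *Socs3*, *Il1rn* and the target lists in ΔS6 therefore stand beside higher markers of 4 other cell types, and the part of these cells in the result was not tested. The part of hepatocyte number in the lower values of *Lifr* and *Il1rap* was not tested.

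**Figure D4:**
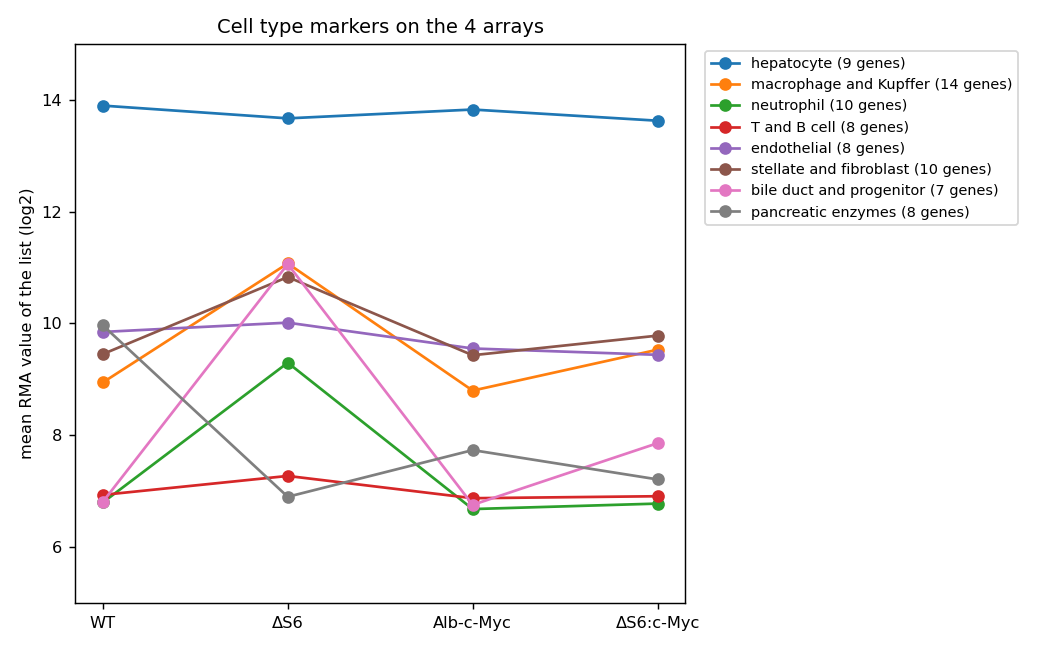
Mean log2 expression value of 8 lists of cell type markers on each array, with lines joining the values of a list. The macrophage, neutrophil, stellate and bile duct lists are highest on the ΔS6 array, the hepatocyte list stays between 13.63 and 13.90, and the pancreatic list is highest on the WT array.

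*Il1r1* was lowest in ΔS6:c-Myc, and so were 4 of the 8 endothelial markers, while 3 were lowest in Alb-c-Myc and 1 in ΔS6. Some of these orders rest on small gaps. *Clec4g* read 10.94 in ΔS6:c-Myc and 11.00 in Alb-c-Myc, and *Tek* 8.59 and 8.62. The share of all genes lowest on each array was not counted. In ΔS6:c-Myc the endothelial median was -0.39 over WT and -0.05 relative to Alb-c-Myc. *Lyve1* was the 1 marker past 2-fold lower in ΔS6:c-Myc, over WT (-1.38) and relative to Alb-c-Myc (-1.20). Of all genes, 1.80% and 1.36% were lower in these pairs. The part of endothelial cells in the *Il1r1* value was not tested.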

How the data were processed

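RMA with quantile normalization was run by the authors, who deposited 1 log2 expression value for each probe set and array. RMA and affy are named in the submitters' processing notes, with versions not given in the sources used here. Of 45101 probe sets, 64 are controls. Of the other 45037, 34945 have 1 symbol in the platform annotation, 932 have several and 9160 have none, and 34741 of those with 1 symbol have an Entrez identifier in RefSeq (GRCm38.p6), which changed 0 symbols. Each gene was represented by the probe set whose mean on the 4 arrays was highest. Log2 ratios were computed for 5 pairs of arrays and called at 2-fold. Probe sets below a log2 value of 6 on all arrays were taken as dim. RMA compresses ratios of dim and of very bright probe sets. Array medians were 6.85 to 6.87, and the number of arrays, 1 per genotype, limits the precision, so no test was run. List counts stand beside those of all genes.

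The members and lists were chosen with earlier results of these data known. Named genes are all members and, from each list, up to 4 with the largest absolute ratio in ΔS6 over WT and up to 2 in ΔS6:c-Myc over ΔS6, leaving out dim genes, and *Rps6*, *Myc* and *Xist* as checks. *Osm*, *Fga*, *Fgb*, *Fgg*, *Alb*, *Tek*, the Y-linked genes and the other probe sets of list genes, like the genes so described in the results, were taken after their values were seen. Alternatives were median-centring, repeated quantile normalization, a lowess trend (fraction 0.3), no dim probe sets, no _x_at or _s_at probe sets, the mean of all probe sets, and thresholds of 1.5-fold and 4-fold. The Alb-c-Myc array in place of WT was added after seeing the data. The counting step was tested on simulated data. Protein sequences were not analysed here. The software was Python 3.11.15 with pandas 2.3.3, numpy 2.4.6, statsmodels 0.14.6 for lowess, scipy 1.17.1, and matplotlib 3.10.9 for plots.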

Additional observations from a re-analysis of the deposited data

Results flagged for a closer look

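*Socs3* had a log2 ratio of 1.11 in ΔS6 over WT and -0.76 in ΔS6:c-Myc relative to Alb-c-Myc, opposite signs of the *Rps6*-deleted over the undeleted liver without and with the transgene. The probe sets shared by *Rps6* and its pseudogene had medians of -0.29 and -1.76 in these pairs. The 2 probe sets of *Rps6* alone went in opposite directions in both, at -0.79 and 1.47, and at -2.48 and 2.59. All 9 shared probe sets were lower in both pairs. How far *Rps6* mRNA fell in each pair is therefore not settled by these arrays. The study's Northern blots showed less *Rps6* mRNA in ΔS6 than in WT liver, and less still in ΔS6:c-Myc liver. The part of *Rps6* mRNA in the *Socs3* ratios was not tested. The *Socs3* ratios differ by -1.87, and with 1 array per genotype the difference was not tested. *Orm2*, among the listed targets of IL-6 in liver, had 4.45 and -1.02 in the same comparisons, which differ by -5.47, and this difference was not tested either.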

How the results depend on the processing

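No paired analysis was possible because each genotype had 1 array, and for the same reason no replicate could be left out. Median-centring, repeated quantile normalization and a lowess trend each moved 0 of 50 member ratios by more than the spread between probe sets, and changed no count of members by over 1.5 times, but repeated quantile normalization put *Socs3* in ΔS6 over WT at 0.97, so that 2 instead of 3 member genes passed 2-fold there, and the lowess trend put *Il1r1* in ΔS6:c-Myc over ΔS6 at -1.03, so that 3 instead of 2 passed. None of the alternatives reversed a called value. With the mean of all probe sets, 19 of 50 member ratios moved, among them *Lifr* (-1.87), *Osmr* (1.13), *Socs3* (1.62) and *Il1rn* (1.23) in ΔS6 over WT, and the member genes past 2-fold in ΔS6:c-Myc over WT were 1 instead of 2, since *Il1r1* was at -0.58. Without _x_at and _s_at probe sets, 2 instead of 4 member probe sets passed in ΔS6:c-Myc over ΔS6. At 1.5-fold, member probe sets past the threshold were 14 in ΔS6 over WT (9 at 2-fold), 3 in Alb-c-Myc over WT (0), 10 in ΔS6:c-Myc over ΔS6 (4) and 8 in ΔS6:c-Myc relative to Alb-c-Myc (2), and member genes were 6 (3), 1 (0), 5 (2) and 4 (1). At 4-fold, member probe sets were 3 in ΔS6 over WT, 1 in ΔS6:c-Myc over WT (5) and 1 in ΔS6:c-Myc relative to Alb-c-Myc, and member genes were 1 in ΔS6:c-Myc over WT (2) and 1 in ΔS6:c-Myc over ΔS6 (2). Without dim probe sets the median of the IL-1 targets was 2.16 in ΔS6 over WT (1.24) and 0.72 in ΔS6:c-Myc relative to Alb-c-Myc (0.39), since 3 dim genes left the list. With ΔS6 set against Alb-c-Myc, an alternative added after seeing the data, 4 of 10 member ratios of ΔS6 moved, *Il6st* (0.76), *Socs3* (0.73), *Osmr* (2.82) and *Lifr* (-2.51), and *Socs3* was no longer past 2-fold. The causes of these shifts, apart from fewer probe sets or another threshold, were not tested. Values near 15 are close to the top of the scale, and dim values such as those of *Il6* give no ratio.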
